A study of Homo sapiens with 21 samples.

Results

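The collagen genes are the protein-coding genes whose symbol is COL, a type number, A and a chain number, without COL17A1, and 42 of the 56632 genes in the count tables met that rule. They were split by the known architecture of their proteins into 11 fibrillar, 8 basement membrane and 23 other collagens. All 42 were followed in 21 libraries of polyadenylated RNA from 5 human cell lines, with 1 library for each line and condition. The libraries with 14 days of 40 nM gefitinib or 20 nM osimertinib, both inhibitors of the receptor tyrosine kinase EGFR, came from the lung adenocarcinoma lines HCC827 and PC9. Each was set against parental cells of the same line, whose library descriptions begin with VEH, presumably for vehicle. AALE, an immortalized tracheobronchial epithelial line, HCC827 and PC9 were infected with lentivirus that over-expressed miR-147b, miR-21 or a scrambled control and were then selected with puromycin. H1975 and PC9ER, lung cancer lines that the labels describe as positive for the gatekeeper mutation of EGFR, carried a knockdown of miR-147b, a knockdown of miR-21 or a control knockdown, by a method not given in the sources used here. HCC827, PC9, H1975 and PC9ER are all EGFR mutant per the labels. The growth protocol also describes organoids in a matrix gel, and the labels do not say from which kind of culture the libraries came.

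Collagens are secreted proteins in which 3 chains wind into a triple helix. Fibrillar collagens assemble into the cable-like fibrils of connective tissue, type IV collagen forms the sheet-like network under epithelium and endothelium, and other types bridge, anchor or border these structures. In lung, most fibrillar collagen is made by fibroblasts, while epithelial cells contribute chains of the basement membrane. Chain names give the type and the chain, so COL4A3 encodes the alpha 3 chain of type IV.

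Summed expected counts were 15516460 to 29694050 per library (median 22026253), so that 3 counts, the floor used here, correspond to 0.101 to 0.193 CPM (counts per 1000000 counts in the library), depending on library size. The epithelial markers EPCAM, CDH1, KRT8, KRT18 and KRT19 summed to 2164 to 12810 CPM per library. Of 10 fibroblast markers 5, namely PDGFRA, PDGFRB, THY1, FAP and POSTN, stayed under 1 CPM in every library. All 10 summed to between 6.84 CPM in parental HCC827 cells and 73.0 CPM in AALE with miR-21, of which ACTA2 made up 45.8 CPM. In PC9 with scrambled control the sum was 62.8 CPM, of which S100A4 made up 60.9 CPM. The row for the MIR147B locus held 23.0, 13.0 and 2.83 CPM in the miR-147b over-expressing libraries of AALE, HCC827 and PC9 and 0 in the other 18. The MIR21 row was at 0 in 20 libraries, among them every library with miR-21 over-expression. Neither row measures the mature miRNA, so neither the miR-21 over-expression nor the knockdowns could be checked this way. The miR-21 knockdown library of PC9ER stood apart, with 29.3% of 15390 genes past 2-fold against its control, compared with 1.7% to 5.45% in the other 9 miRNA libraries. The fitted values named below that rest on it, and their counts of calls, are given with and without it. Nothing in the labels says that libraries of a line came from separate cultures, so the lines serve as replicates of a drug or miRNA, while in comparisons of lines the 3 differently treated libraries of a line stand as its repeats, and p-values measure only the spread between these samples, which may be technical in part.

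Collagen messages were spread over few genes. Of the 42 genes, 21 reached 5 CPM in at least 1 library, 12 peaked between 1 and 5 CPM and 9 stayed under 1 CPM everywhere. The 5 CPM mark was reached by 4 of 11 fibrillar, 7 of 8 basement membrane and 10 of 23 other collagens. In all 21 libraries 6 of the 42 were at 1 CPM or more, namely COL1A1, COL6A1, COL7A1, COL12A1, COL18A1 and COL27A1. The 9 genes under 1 CPM were COL1A2, COL6A5, COL6A6, COL8A2, COL10A1, COL14A1, COL22A1, COL23A1 and COL25A1.

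**Figure D1:**
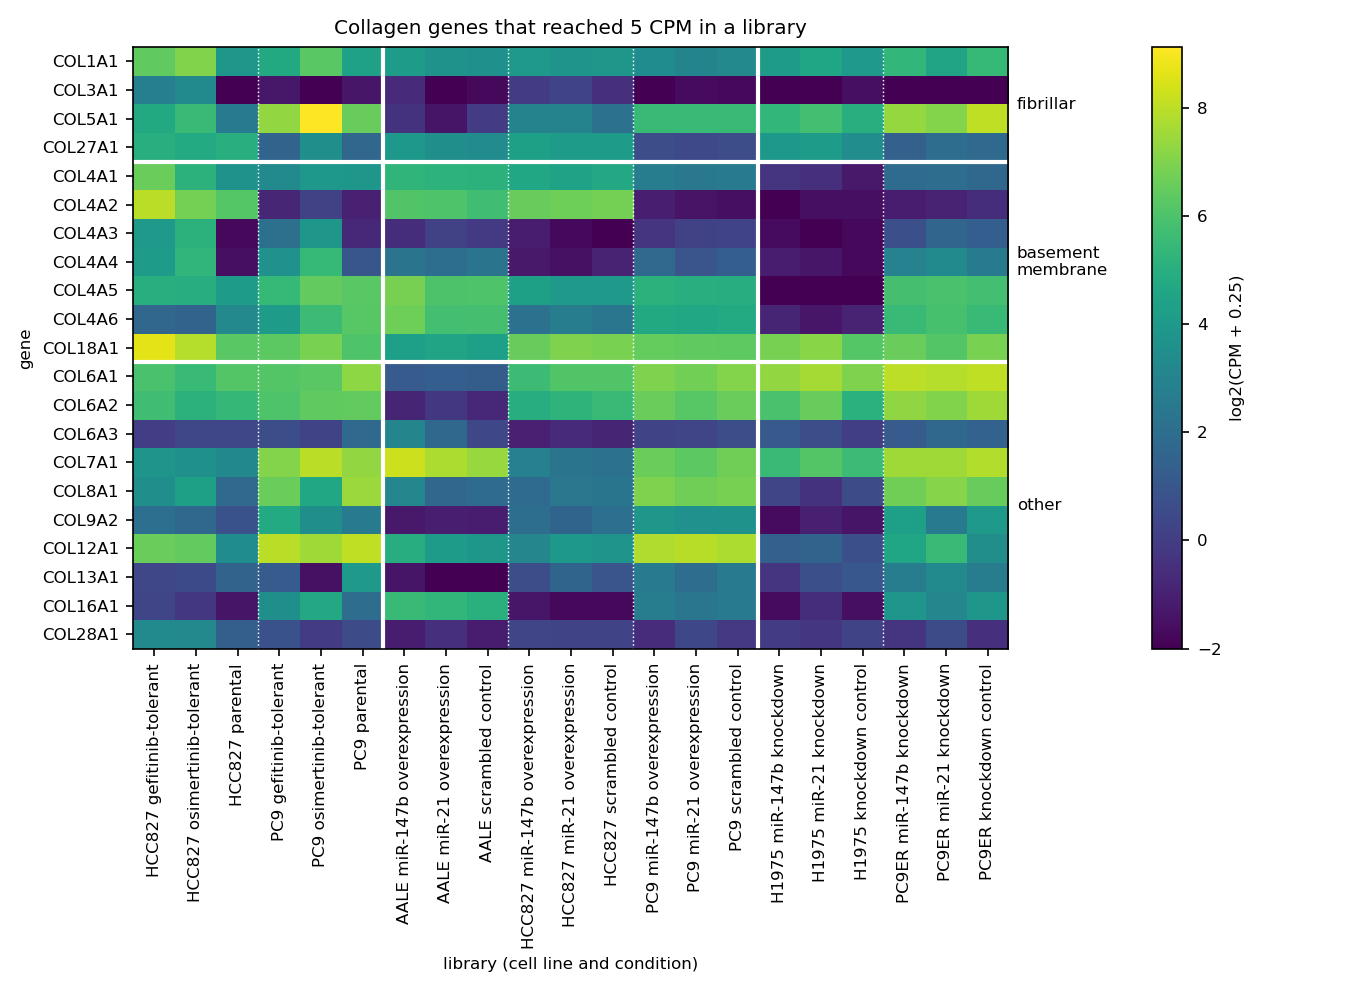
Levels of the 21 collagen genes that reached 5 CPM, as log2(CPM + 0.25), with genes by class in rows and the 21 libraries in columns; thick white lines part classes and experiments, and dotted lines part cell lines. COL4A3 and COL4A4 are bright in the tolerant libraries of HCC827 and PC9, the type IV rows are dark in H1975, and COL6A1 and COL6A2 are dark in AALE.

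Several chains were present without the chain they usually pair with. The following levels are CPM per kilobase of exon, over the merged exons of all annotated transcripts of a gene. This length can exceed that of the message expressed, so comparisons between genes are approximate. COL1A1, the major chain of type I collagen, had a median of 1.73 CPM per kb over 21 libraries, whereas COL1A2, the other chain of the usual type I heterotrimer, had a median of 0.0204 CPM per kb, and COL1A1 was above COL1A2 in 21 of 21 libraries. COL5A1 had a median of 3.95 CPM per kb against 0.154 CPM per kb for COL5A2, its usual partner in type V collagen, and was the higher in 18 of 21 libraries. Type VI collagen, which makes beaded filaments around cells, is usually assembled from 3 different chains, and here COL6A1 and COL6A2 had medians of 14.3 and 11.3 CPM per kb while COL6A3 had 0.0556 CPM per kb. COL8A1 was above COL8A2 in 21 of 21 libraries, with medians of 1.20 and 0.0715 CPM per kb.

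**Figure D2:**
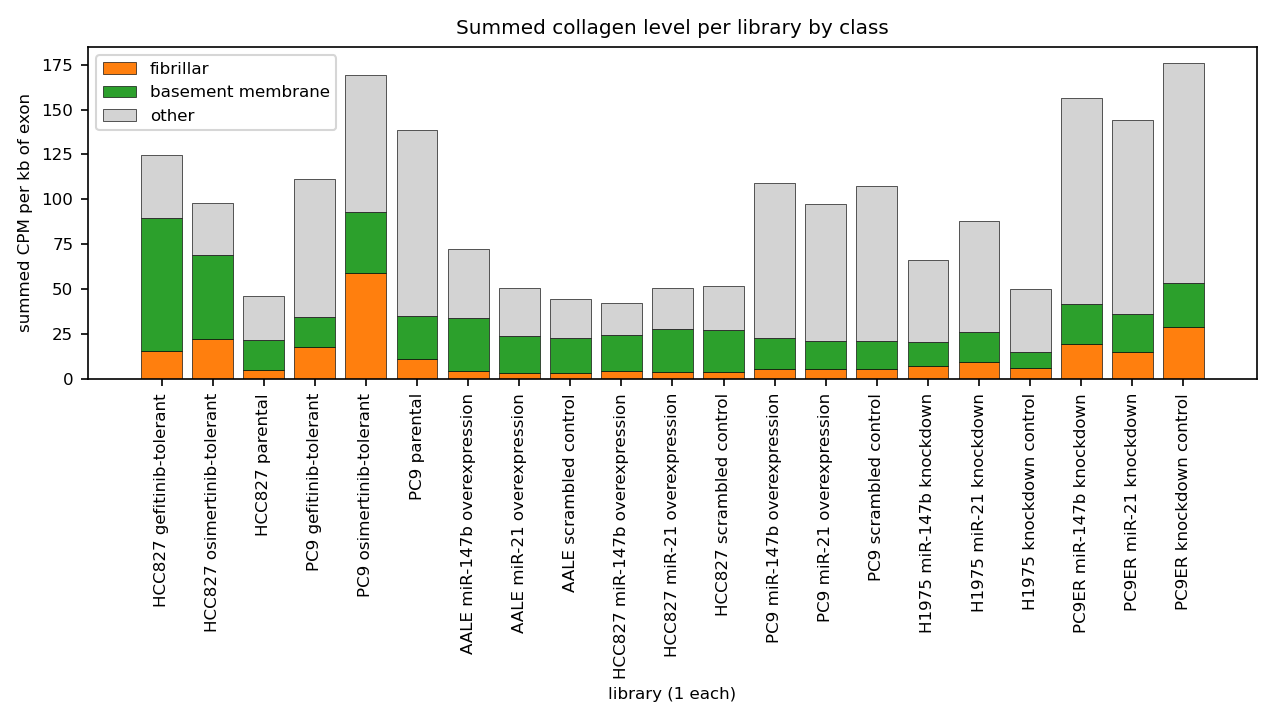
Summed level of all 42 collagen genes in each library, in CPM per kilobase of exon, stacked by class (bars start at 0; 1 library per bar, so no error is drawn). The basement membrane part is tallest in gefitinib-tolerant HCC827 cells (74.0 CPM per kb) and the fibrillar part in osimertinib-tolerant PC9 cells (58.9 CPM per kb).

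The share of each class differed between tolerant and parental libraries. Fibrillar collagens made up 12.4% of the summed collagen level per kilobase in gefitinib-tolerant HCC827 cells, 22.6% in osimertinib-tolerant and 10.0% in parental HCC827 cells. In PC9 the fibrillar share was 15.6% in gefitinib-tolerant, 34.8% in osimertinib-tolerant and 7.86% in parental cells. In both lines the fibrillar share was therefore highest in the osimertinib-tolerant library. Most of it there was a single gene: COL5A1 in PC9 (49.8 of 58.9 CPM per kb) and COL1A1 in HCC827 (13.4 of 22.1 CPM per kb). Basement membrane collagens made up 59.5%, 47.8% and 36.4% in gefitinib-tolerant, osimertinib-tolerant and parental HCC827 cells, and 15.4%, 20.1% and 17.3% in the gefitinib-tolerant, osimertinib-tolerant and parental PC9 cells. COL18A1 made up 47.9 of the 74.0 CPM per kb of basement membrane collagens in gefitinib-tolerant HCC827 cells. Scrambled control cells of the over-expression experiment had a basement membrane share of 45.3% in HCC827, near that of osimertinib-tolerant cells, and 14.75% in PC9. Their fibrillar share was 6.72% in HCC827 and 4.79% in PC9. These are values of 1 library each and carry no test.

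Type IV collagen is encoded by 3 pairs of genes that lie head to head, each pair read outward from a shared promoter region, and the promoters of the autosomal pairs are printed here because the partners COL4A3 and COL4A4 were both higher past 2-fold in every tolerant library while COL4A2 stayed under 1 CPM in PC9. COL4A3 and COL4A4 start 419 bp apart on chromosome 2 and COL4A1 and COL4A2 start 127 bp apart on chromosome 13, in RefSeq on GRCh38.p14. Each window runs from 250 bases before to 50 after the annotated start, 5′ to 3′ on the gene's own strand, at chr2:227164156-227164455 (minus strand) for COL4A4, chr2:227164374-227164673 (plus strand) for COL4A3, chr13:110307108-110307407 (minus strand) for COL4A1 and chr13:110307034-110307333 (plus strand) for COL4A2. Capitals mark the matches found on either strand among the CCAAT box, the GC box GGGCGG, the TATA box TATAAA, the AP-1 motif TGANTCA and the TEAD motif GGAATG, of which no matches overlap.
COL4A4: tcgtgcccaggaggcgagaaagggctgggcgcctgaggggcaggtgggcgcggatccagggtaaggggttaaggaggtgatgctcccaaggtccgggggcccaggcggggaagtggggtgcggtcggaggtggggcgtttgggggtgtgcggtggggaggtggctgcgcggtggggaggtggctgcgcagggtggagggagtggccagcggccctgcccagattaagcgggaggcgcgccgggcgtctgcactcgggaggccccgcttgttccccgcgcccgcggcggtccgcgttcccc
COL4A3: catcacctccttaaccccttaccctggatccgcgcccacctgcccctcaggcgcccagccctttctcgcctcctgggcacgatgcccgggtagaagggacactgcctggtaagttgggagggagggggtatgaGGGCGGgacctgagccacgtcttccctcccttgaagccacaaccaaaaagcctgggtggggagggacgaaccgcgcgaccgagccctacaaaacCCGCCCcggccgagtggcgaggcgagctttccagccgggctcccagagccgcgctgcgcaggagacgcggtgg
COL4A1: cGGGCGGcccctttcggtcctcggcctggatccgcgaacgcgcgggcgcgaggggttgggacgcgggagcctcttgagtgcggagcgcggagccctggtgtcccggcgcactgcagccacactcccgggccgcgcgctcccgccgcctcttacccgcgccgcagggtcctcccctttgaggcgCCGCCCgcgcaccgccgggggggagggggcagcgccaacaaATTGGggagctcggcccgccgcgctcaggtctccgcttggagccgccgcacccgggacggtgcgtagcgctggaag
COL4A2: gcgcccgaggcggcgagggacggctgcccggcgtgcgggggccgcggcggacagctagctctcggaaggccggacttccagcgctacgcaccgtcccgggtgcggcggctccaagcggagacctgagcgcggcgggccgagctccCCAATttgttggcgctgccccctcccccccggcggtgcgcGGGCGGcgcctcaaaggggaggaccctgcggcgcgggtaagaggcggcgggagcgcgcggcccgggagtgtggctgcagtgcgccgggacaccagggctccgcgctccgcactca

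The COL4A3 window held GGGCGG on either strand in 2 places and the COL4A4 window held none of the 5 motifs. GGGCGG also occurred in 2 places in the COL4A1 window and in 1 in the COL4A2 window, and each of these held 1 CCAAT. The windows of COL4A3 and COL4A4 share 82 bp and those of COL4A1 and COL4A2 share 226 bp, so matches in the shared part are the same letters counted from either side. Of 35116 RefSeq promoter windows of the same length 34.6% hold CCAAT, 45.0% GGGCGG, 11.5% TATAAA, 7.71% TGANTCA and 14.0% GGAATG, and 30 of the 42 collagen genes had a window. A match is a description of these letters and says nothing about a factor's binding.

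Drug-tolerant cells of both lines held more COL4A3 and COL4A4 message than their parental cells. COL4A3 and COL4A4 encode chains of the alpha 3, 4 and 5 network found in the basement membranes of kidney glomerulus, lung alveolus and inner ear. COL4A3 was at 15.9 CPM in gefitinib-tolerant, 35.4 CPM in osimertinib-tolerant and 0.0466 CPM in parental HCC827 cells. In PC9, COL4A3 was at 4.01 CPM in gefitinib-tolerant, 14.4 CPM in osimertinib-tolerant and 0.334 CPM in parental PC9 cells. COL4A4 was at 17.6 CPM in gefitinib-tolerant, 39.9 CPM in osimertinib-tolerant and 0.088 CPM in parental HCC827 cells. In PC9, COL4A4 was at 12.03 CPM in gefitinib-tolerant, 43.4 CPM in osimertinib-tolerant and 1.71 CPM in parental PC9 cells. For both genes every tolerant library lay above both parental libraries, and in each line the osimertinib-tolerant library was the higher of the tolerant pair. The HCC827 parental values rest on 1 count for COL4A3 and 2 for COL4A4, so that the ratio in gefitinib-tolerant HCC827 cells was 361 for COL4A3 (95% exact interval 64.4 to 14290.0, for counting error only) and 199.9 for COL4A4 (55.0 to 1656). In osimertinib-tolerant HCC827 cells it was 804 for COL4A3 (144 to 31790.0) and 454 for COL4A4 (125 to 3751).

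They were the only collagens of 30 at 1 CPM in any of the 4 pairs that were higher past 2-fold in all 4 tolerant libraries, as were 2.83% of 18105 genes at that level. COL4A3 was under 1 CPM in both parental libraries, and COL4A4 in that of HCC827. They entered those pairs through the tolerant library alone and could then lie only above the parental one. The share over all genes was counted by the same rule. COL13A1, a transmembrane collagen at cell contacts, was the only collagen lower past 2-fold in all 4, as were 0.685% of genes. COL13A1 was at 1.02 CPM in gefitinib-tolerant, 1.15 CPM in osimertinib-tolerant and 2.68 CPM in parental HCC827 cells. In PC9, COL13A1 was at 2.09 CPM in gefitinib-tolerant, 0.106 CPM in osimertinib-tolerant and 15.3 CPM in parental PC9 cells. The gap to the parental cells was wider in PC9, where the osimertinib-tolerant library held 2 counts. Scrambled control cells of the over-expression experiment held COL13A1 at 1.64 CPM in HCC827 and 5.99 CPM in PC9, between the tolerant and parental values.

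Across both lines no collagen passed the test at an adjusted p of 0.05. In edgeR's quasi-likelihood test with the cell line as a block, 0 of 34 tested collagens passed in gefitinib tolerance, as did 0% of 19837 genes, while 9 collagens against 17.5% of all genes had an unadjusted p under 0.05. For osimertinib tolerance 0 of 34 passed (0% of genes), with 11 collagens and 19.8% of all genes under the unadjusted 0.05. For the mean of both drugs 0 of 34 passed (0% of genes), with 14 collagens and 23.5% of genes under the unadjusted 0.05. The smallest adjusted p of any gene was 0.21, 0.151 and 0.102 in these fits, each with 2 residual degrees of freedom, and DESeq2 called 7, 7 and 9 collagens beside 6.78%, 8.84% and 12.5% of genes. Without the parental PC9 library 9, 8 and 11 collagens passed in edgeR beside 17.8%, 20% and 22.9% of genes, all of these collagens higher, with COL1A1, COL3A1, COL4A3, COL4A4, COL5A1, COL12A1, COL20A1 and COL21A1 in each of the 3 fits, and that fit rests on the parental HCC827 library alone. The values below are therefore differences that did not pass this test. Both drug contrasts share their parental libraries.

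The fitted log2 difference of COL4A3 was 5.14 ± 1.04 (SE) for gefitinib and 6.49 ± 1.06 for osimertinib, with adjusted p of 0.223 and 0.170 in edgeR. That of COL4A4 was 4.15 ± 1.05 for gefitinib and 5.50 ± 1.08 for osimertinib, with adjusted p of 0.228 and 0.170 in edgeR. COL4A6, which encodes a chain of the alpha 5 and 6 network of bronchial and smooth muscle basement membranes, lay in the other direction, with log2 differences of -1.98 ± 0.45 and -1.28 ± 0.44 for the same drugs (edgeR adjusted p of 0.223 and 0.220). It was at 2.93 CPM in gefitinib-tolerant, 2.70 CPM in osimertinib-tolerant and 9.29 CPM in parental HCC827 cells. In PC9, COL4A6 was at 17.3 CPM in gefitinib-tolerant, 49.1 CPM in osimertinib-tolerant and 75.4 CPM in parental PC9 cells. All 4 tolerant libraries lay below the parental library of their line, 3 of them past 2-fold. Scrambled control cells of the over-expression experiment were also below the parental libraries, at 4.96 CPM in HCC827 and 27.6 CPM in PC9. The PC9 control lay below osimertinib-tolerant PC9 cells as well. COL4A5, the head-to-head partner of COL4A6, was at 32.1 CPM in gefitinib-tolerant, 29.9 CPM in osimertinib-tolerant and 17.2 CPM in parental HCC827 cells. In PC9, COL4A5 was at 43.3 CPM in gefitinib-tolerant, 88.5 CPM in osimertinib-tolerant and 78.2 CPM in parental PC9 cells. COL4A5 was thus above its parental library in 3 of 4 tolerant libraries and COL4A6 in none.

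COL4A1 and COL4A2 encode the common chains of type IV collagen, and their values depended on the line. COL4A1 was at 96.9 CPM in gefitinib-tolerant, 35.5 CPM in osimertinib-tolerant and 12.4 CPM in parental HCC827 cells. In PC9, COL4A1 was at 9.54 CPM in gefitinib-tolerant, 15.1 CPM in osimertinib-tolerant and 14.8 CPM in parental PC9 cells, within 2-fold of one another. COL4A2 was at 249 CPM in gefitinib-tolerant, 111 CPM in osimertinib-tolerant and 72.5 CPM in parental HCC827 cells. In PC9, COL4A2 was at 0.316 CPM in gefitinib-tolerant, 0.847 CPM in osimertinib-tolerant and 0.26 CPM in parental PC9 cells, under 1 CPM throughout, although COL4A1 reached 15.1 CPM in those cells. COL18A1, a heparan sulfate collagen of basement membranes and the source of endostatin, was at 408 CPM in gefitinib-tolerant, 237 CPM in osimertinib-tolerant and 78.0 CPM in parental HCC827 cells. In PC9, COL18A1 was at 78.6 CPM in gefitinib-tolerant, 118 CPM in osimertinib-tolerant and 67.0 CPM in parental PC9 cells. COL15A1, its close relative, was at 0.722 CPM in gefitinib-tolerant, 0.532 CPM in osimertinib-tolerant and 3.61 CPM in parental HCC827 cells. In PC9, COL15A1 was at 0.631 CPM in gefitinib-tolerant, 2.73 CPM in osimertinib-tolerant and 0.482 CPM in parental PC9 cells. COL15A1 thus passed 2-fold downward in HCC827 and upward in PC9 with osimertinib.

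**Figure D3:**
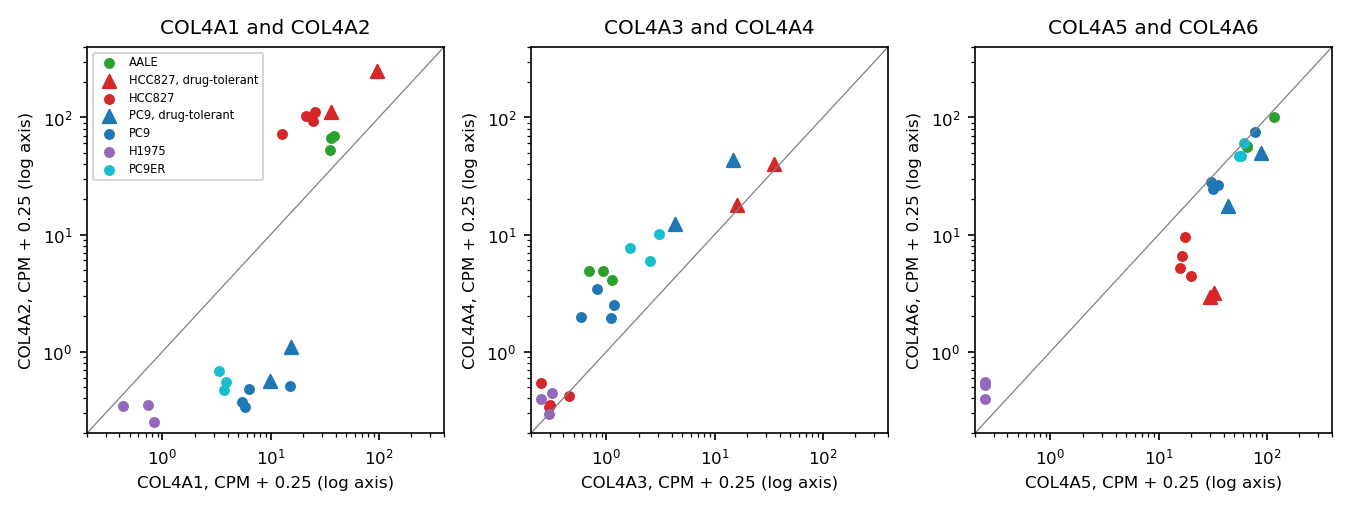
Levels of the 3 head-to-head type IV pairs in the 21 libraries, as CPM + 0.25 on log axes, coloured by cell line, with triangles for the drug-tolerant libraries; the grey line marks equal levels. COL4A3 and COL4A4 climb together in the triangles, while COL4A2 is near the bottom in PC9 and PC9ER at COL4A1 levels of 3.09 to 15.1 CPM.

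Over all 21 libraries, which share lines and therefore are not independent, log2 levels of the head-to-head partners correlated at a Pearson r of 0.927 and a Spearman rho of 0.922 for COL4A3 and COL4A4. For COL4A5 and COL4A6 they were 0.901 and 0.912, and for COL4A1 and COL4A2 0.808 and 0.831. The COL4A2 to COL4A1 ratio of CPM (computed on CPM + 0.25) ranged from 0.0340 to 5.77 and was above 1 in the AALE and HCC827 libraries and below 1 in PC9, PC9ER and H1975.

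Among the fibrillar collagens the tolerant libraries were higher for COL5A1 and COL1A1 in most pairs. COL5A1, a chain of the type V collagen that starts and limits fibril growth, was at 27.0 CPM in gefitinib-tolerant, 46.9 CPM in osimertinib-tolerant and 5.89 CPM in parental HCC827 cells. In PC9, COL5A1 was at 158 CPM in gefitinib-tolerant, 558 CPM in osimertinib-tolerant and 93.4 CPM in parental PC9 cells. Its log2 difference was 1.38 ± 0.42 for gefitinib and 2.57 ± 0.42 for osimertinib (edgeR adjusted p of 0.231 and 0.170). COL1A1 was at 85.7 CPM in gefitinib-tolerant, 131 CPM in osimertinib-tolerant and 14.7 CPM in parental HCC827 cells. In PC9, COL1A1 was at 27.1 CPM in gefitinib-tolerant, 76.9 CPM in osimertinib-tolerant and 20.5 CPM in parental PC9 cells. Its log2 difference was 1.35 ± 0.56 for gefitinib and 2.24 ± 0.56 for osimertinib (edgeR adjusted p of 0.302 and 0.178). Every tolerant library exceeded its parental library in both genes, and the osimertinib-tolerant library was the highest of each line. COL3A1, the chain of type III collagen, was at 6.76 CPM in gefitinib-tolerant, 9.67 CPM in osimertinib-tolerant and 0 CPM in parental HCC827 cells, which is at least 51.2-fold and 73.3-fold above a floor of 3 counts in the parental library. These bounds hold for that library only, as COL3A1 was at 0.482 to 0.94 CPM in the HCC827 libraries of the over-expression experiment. In PC9, COL3A1 was at 0.158 CPM in gefitinib-tolerant, 0 CPM in osimertinib-tolerant and 0.148 CPM in parental PC9 cells. COL27A1, a fibrillar collagen of cartilage and other tissues, was at 31.9 CPM in gefitinib-tolerant, 27.9 CPM in osimertinib-tolerant and 30.9 CPM in parental HCC827 cells. In PC9, COL27A1 was at 2.64 CPM in gefitinib-tolerant, 11.5 CPM in osimertinib-tolerant and 2.92 CPM in parental PC9 cells, so that 1 of the 4 tolerant libraries passed 2-fold.

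The remaining collagens at 5 CPM or more followed no common direction. COL12A1, which sits on the surface of fibrils and belongs to the FACIT group, was at 94.1 CPM in gefitinib-tolerant, 87.2 CPM in osimertinib-tolerant and 10.3 CPM in parental HCC827 cells. In PC9, COL12A1 was at 250.2 CPM in gefitinib-tolerant, 186 CPM in osimertinib-tolerant and 266 CPM in parental PC9 cells. COL8A1, a short chain collagen of vessels and cornea, was at 11.3 CPM in gefitinib-tolerant, 19.5 CPM in osimertinib-tolerant and 3.23 CPM in parental HCC827 cells. In PC9, COL8A1 was at 96.4 CPM in gefitinib-tolerant, 24.9 CPM in osimertinib-tolerant and 173 CPM in parental PC9 cells. Both genes were thus higher in tolerant HCC827 libraries and lower in tolerant PC9 libraries than in the parental cells. COL9A2, a FACIT chain of cartilage, was at 3.95 CPM in gefitinib-tolerant, 3.07 CPM in osimertinib-tolerant and 1.495 CPM in parental HCC827 cells. In PC9, COL9A2 was at 27.4 CPM in gefitinib-tolerant, 11.4 CPM in osimertinib-tolerant and 6.01 CPM in parental PC9 cells. COL16A1, another FACIT collagen, was at 0.988 CPM in gefitinib-tolerant, 0.614 CPM in osimertinib-tolerant and 0.132 CPM in parental HCC827 cells. In PC9, COL16A1 was at 11.3 CPM in gefitinib-tolerant, 26.3 CPM in osimertinib-tolerant and 3.67 CPM in parental PC9 cells. Both stood above the parental value in all 4 tolerant libraries, with log2 differences for the mean of the drugs of 1.27 ± 0.33 for COL9A2 and 2.23 ± 0.55 for COL16A1 (edgeR adjusted p of 0.130 and 0.127). Scrambled control cells of the over-expression experiment held COL9A2 at 3.90 CPM in HCC827 and 12.6 CPM in PC9. Both values lay above the osimertinib-tolerant and below the gefitinib-tolerant library of the line. COL16A1 was at 0.0482 and 5.99 CPM in those controls, below every tolerant library of its line.

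COL6A1 and COL6A2, the beaded filament chains, were abundant in all 6 libraries. COL6A1 was at 61.2 CPM in gefitinib-tolerant, 45.1 CPM in osimertinib-tolerant and 70.1 CPM in parental HCC827 cells. In PC9, COL6A1 was at 70.6 CPM in gefitinib-tolerant, 76.2 CPM in osimertinib-tolerant and 149.8 CPM in parental PC9 cells. COL6A2 was at 52.4 CPM in gefitinib-tolerant, 35.4 CPM in osimertinib-tolerant and 42.8 CPM in parental HCC827 cells. In PC9, COL6A2 was at 66.0 CPM in gefitinib-tolerant, 85.0 CPM in osimertinib-tolerant and 88.6 CPM in parental PC9 cells. COL6A1 lay below the parental library in all 4 tolerant libraries, with a log2 difference of -0.74 ± 0.31 for gefitinib and -1.0 ± 0.31 for osimertinib (edgeR adjusted p of 0.301 and 0.202). COL6A3 was at 0.775 CPM in gefitinib-tolerant, 1.02 CPM in osimertinib-tolerant and 1.05 CPM in parental HCC827 cells. In PC9, COL6A3 was at 1.35 CPM in gefitinib-tolerant, 0.956 CPM in osimertinib-tolerant and 3.29 CPM in parental PC9 cells. It was lower past 2-fold in both PC9 pairs. COL7A1, the anchoring fibril collagen that ties epithelium to the matrix below, was at 13.3 CPM in gefitinib-tolerant, 11.6 CPM in osimertinib-tolerant and 8.93 CPM in parental HCC827 cells. In PC9, COL7A1 was at 133 CPM in gefitinib-tolerant, 248 CPM in osimertinib-tolerant and 158 CPM in parental PC9 cells. None of its pairs passed 2-fold. COL28A1, a collagen with von Willebrand factor domains, was at 9.79 CPM in gefitinib-tolerant, 9.18 CPM in osimertinib-tolerant and 2.36 CPM in parental HCC827 cells. In PC9, COL28A1 was at 1.48 CPM in gefitinib-tolerant, 0.737 CPM in osimertinib-tolerant and 1.26 CPM in parental PC9 cells.

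**Figure D4:**
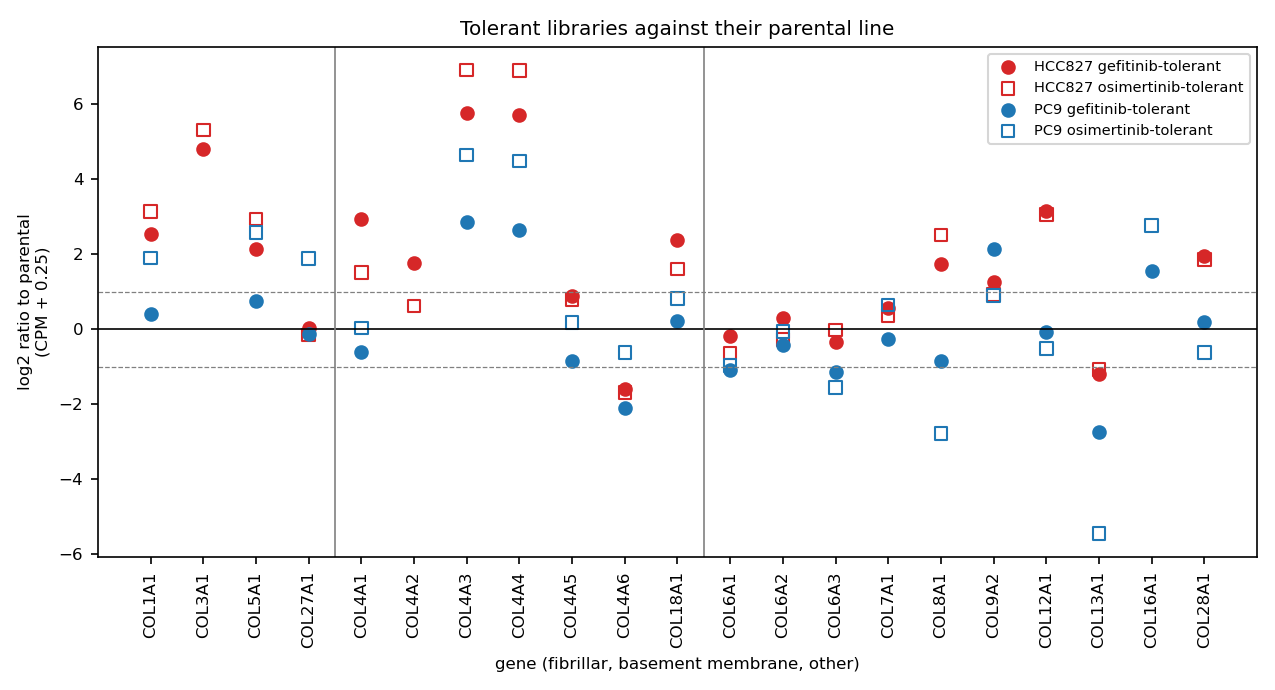
Log2 ratio of each tolerant library to its parental line, computed on CPM + 0.25, for the 21 collagen genes that reached 5 CPM, in the order fibrillar, basement membrane and other; red is HCC827, blue is PC9, filled circles are gefitinib and open squares osimertinib, and dashed lines mark 2-fold. Points are left out where both libraries of a pair are under 1 CPM. COL4A3 and COL4A4 lie above 2-fold in all 4 libraries, COL13A1 lies below it in all 4, and COL8A1 and COL12A1 are split by line.

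Read pair by pair, more collagens passed 2-fold in HCC827 than in PC9. In gefitinib-tolerant HCC827 cells 16 of 26 tested collagens were higher past 2-fold and 4 lower, against 18.6% and 14.3% of all genes. In osimertinib-tolerant HCC827 cells 15 of 27 were higher and 3 lower, against 20.7% and 12.5% of genes. In gefitinib-tolerant PC9 cells 5 of 20 were higher and 4 lower, against 14.4% and 4.43% of genes. In osimertinib-tolerant PC9 cells 9 of 22 were higher and 3 lower, against 17.3% and 5.31% of genes. The median gene itself lay at a log2 ratio of up to 0.18 in these pairs, in osimertinib-tolerant PC9 cells, and the pairs of a line share their parental library. A collagen was counted where either library reached 1 CPM, so some entered through the tolerant library alone and could then lie only above the parental one. Of the higher ones these were 6 of 16 with gefitinib and 7 of 15 with osimertinib in HCC827, and 2 of 5 with gefitinib and 4 of 9 with osimertinib in PC9.

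Besides the genes above, HCC827 cells were higher past 2-fold with both drugs for COL5A2, COL20A1, COL21A1 and COL24A1, all of which peaked between 1 and 5 CPM. COL24A1, a fibrillar collagen, was at 4.05 CPM in gefitinib-tolerant, 4.97 CPM in osimertinib-tolerant and 1.27 CPM in parental HCC827 cells. COL21A1, a FACIT collagen, was at 4.03 CPM in gefitinib-tolerant, 4.30 CPM in osimertinib-tolerant and 0.352 CPM in parental HCC827 cells. COL5A2 was at 2.54 CPM in gefitinib-tolerant, 3.28 CPM in osimertinib-tolerant and 0.923 CPM in parental HCC827 cells. COL20A1 was at 3.53 CPM in gefitinib-tolerant, 3.52 CPM in osimertinib-tolerant and 0 CPM in parental HCC827 cells. All 4 genes lay below 1 CPM in the 3 PC9 libraries, where COL9A3, a FACIT chain, was higher past 2-fold with both drugs at 1.42 CPM in gefitinib-tolerant, 1.38 CPM in osimertinib-tolerant and 0.519 CPM in parental PC9 cells. COL11A1 passed 2-fold in osimertinib-tolerant PC9 cells (1.06 CPM, against 0.297 CPM in parental cells) and COL11A2 in osimertinib-tolerant HCC827 cells (1.11 CPM, against 0.396 CPM in parental cells). COL9A1 was at 0.267 CPM in gefitinib-tolerant HCC827 cells and 1.02 CPM in parental HCC827 cells.

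By class, 8 of the 9 tested fibrillar collagens were above 0 in the fitted log2 difference for the mean of both drugs, with a median of 1.45, as were 6 of 8 basement membrane collagens (median 0.93) and 10 of 17 others (median 0.42). The median over all 34 tested collagens was 0.83 and that over all 19837 tested genes 0.04. For gefitinib the medians were 1.25 for fibrillar, 1.20 for basement membrane and 0.38 for other collagens, and for osimertinib 1.68, 0.64 and 0.45. The classes were not tested against each other, and the members that passed the filter on low counts include genes that passed through the tolerant group alone.

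The tolerant cells of both drugs were also set against each other. Osimertinib-tolerant against gefitinib-tolerant cells gave 0 of 34 collagens past an adjusted p of 0.05 (0% of genes), and 1 collagen against 0.998% of genes under the unadjusted 0.05. That gene was COL5A1, higher with osimertinib by 1.18 ± 0.41 log2 units (edgeR unadjusted p of 0.0329, adjusted p of 1). On the lower side COL9A2 came nearest, with a log2 difference of -0.91 ± 0.36 (edgeR adjusted p of 1).

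Whether the tolerant and parental cells differed by the same amount in the lines was tested as an interaction, with both drugs as repeats. With a single parental library in either line, the spread was estimated from the tolerant libraries alone, and parental cells are assumed to vary as much. COL12A1 was the only collagen of 34 that passed, higher in HCC827 than in PC9 by 3.49 ± 0.36 log2 units (edgeR adjusted p of 0.0333), whereas 1.92% of genes passed in that direction and 1.98% in the other. It followed from 94.1 and 87.2 CPM in the tolerant and 10.3 CPM in the parental HCC827 cells, set beside 250.2 and 186 CPM in the tolerant and 266 CPM in the parental PC9 cells. The call was lost, with 0 collagens passing, when either tolerant HCC827 library was left out and with no filter on low counts (adjusted p of 0.053 in edgeR). When the gefitinib- or the osimertinib-tolerant PC9 library was left out 5 collagens passed, as did 4.99% or 6.47% of genes. Under the unadjusted 0.05 were 9 collagens and 26.8% of genes, among them COL8A1 at 3.81 ± 1.23 (edgeR adjusted p of 0.136) and, in the other direction, COL15A1 at -4.21 ± 1.33 (edgeR adjusted p of 0.131).

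Genes that make, cut or bind collagen did not pass either. Of 26 tested genes of collagen synthesis and processing, 0 passed for the mean of both drugs, 14 were above 0 and the median log2 difference was 0.06. BMP1, which removes the C-terminal propeptide of fibrillar procollagens, had a log2 difference of 1.02 ± 0.27, and PLOD3, a lysyl hydroxylase and glycosyltransferase of collagen, had -1.02 ± 0.20 (edgeR adjusted p of 0.133 and 0.115). Of 15 basement membrane partners 0 passed, with a median of 0.01, and LAMB2, a laminin beta chain, came nearest among those above 0, with a log2 difference of 1.39 ± 0.28 (edgeR adjusted p of 0.116). Of 3 tested collagen receptors 0 passed. In the interaction, with its single parental library per line, 1 of the 26 synthesis and processing genes passed, beside 3.9% of all genes. It was TLL1, a BMP1-like protease, at 90.2 and 79.8 CPM in the tolerant and 28.0 CPM in the parental HCC827 cells. In PC9, TLL1 was low, at 0.552 and 0.371 CPM in the tolerant and 1.30 CPM in the parental cells. Its log2 difference between the lines was 3.12 ± 0.40 (edgeR adjusted p of 0.0360).

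Markers of other cell types were measured beside these differences, and their part in them was not tested. The 10 fibroblast markers summed to 13.4 CPM in gefitinib-tolerant, 17.7 CPM in osimertinib-tolerant and 6.84 CPM in parental HCC827 cells, and to 27.1, 14.9 and 9.42 CPM in gefitinib-tolerant, osimertinib-tolerant and parental PC9 cells, with S100A4, which epithelial cells also express, and ACTA2 making up most of it. LUM, a proteoglycan of fibril-rich tissue, was at 1.48 and 1.97 CPM in the gefitinib- and osimertinib-tolerant HCC827 libraries and 0.0880 CPM in the parental library. PDGFRA, PDGFRB, THY1, FAP and POSTN were under 1 CPM in all 6. With the conditions in the same order, the 3 endothelial markers summed to 3.11, 3.56 and 1.58 CPM in HCC827 and to 62.0, 37.4 and 39.2 CPM in PC9, where CDH5 made up 60.0, 32.2 and 37.9 CPM. The 3 basal epithelial markers summed to 1.85, 1.81 and 5.06 CPM in HCC827 and to 56.9, 104 and 352 CPM in PC9, where most of it was KRT5. The 4 leukocyte markers, mostly CD68, summed to 41.7, 37.2 and 120.0 CPM in HCC827 and to 55.0, 37.7 and 41.0 CPM in PC9, and the 4 smooth muscle and pericyte markers did not exceed 7.95 CPM in any of the 6 libraries. In bulk RNA, fewer cells of a kind and less RNA per cell cannot be told apart.

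The cell lines differed in their collagens far more than the miRNA libraries of a line did. In the sentences that follow, the 3 values of a line are those of miR-147b over-expression, miR-21 over-expression and scrambled control, in that order. COL4A1 was at 38.5, 36.0 and 35.5 CPM in AALE, 24.6, 21.0 and 25.6 CPM in HCC827, and 6.07, 5.22 and 5.55 CPM in PC9. COL4A2 was at 69.5, 66.9 and 52.4 CPM in AALE, 93.2, 102 and 112 CPM in HCC827, and 0.232, 0.12 and 0.0888 CPM in PC9. COL4A3 was at 0.442, 0.88 and 0.688 CPM in AALE, 0.202, 0.0495 and 0 CPM in HCC827, and 0.564, 0.853 and 0.932 CPM in PC9. AALE therefore held both common chains, as did HCC827, whereas PC9 held COL4A1 with hardly any COL4A2. COL4A4 was at 4.59, 3.86 and 4.67 CPM in AALE, 0.168, 0.099 and 0.289 CPM in HCC827, and 3.20, 1.68 and 2.27 CPM in PC9. COL4A5 was at 115, 65.1 and 65.5 CPM in AALE, 19.8, 16.2 and 15.5 CPM in HCC827, and 35.3, 31.7 and 30.3 CPM in PC9. COL4A6 was at 102, 56.2 and 56.3 CPM in AALE, 4.14, 6.35 and 4.96 CPM in HCC827, and 26.4, 24.1 and 27.6 CPM in PC9. The alpha 5 and 6 chains were highest in AALE and lowest in HCC827. COL18A1 was at 19.2, 22.4 and 19.3 CPM in AALE, 93.7, 124 and 118 CPM in HCC827, and 89.1, 85.2 and 81.6 CPM in PC9, lowest in AALE.

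The fibrillar genes ranked the lines otherwise, the 3 values again being miR-147b over-expression, miR-21 over-expression and scrambled control. COL1A1 was at 17.01, 12.6 and 11.7 CPM in AALE, 15.3, 13.2 and 14.7 CPM in HCC827, and 10.4, 7.91 and 9.06 CPM in PC9. COL3A1 was at 0.394, 0 and 0.0491 CPM in AALE, 0.707, 0.94 and 0.482 CPM in HCC827, and 0, 0.06 and 0.0444 CPM in PC9. COL5A1 was at 0.525, 0.136 and 0.737 CPM in AALE, 7.58, 7.67 and 4.38 CPM in HCC827, and 44.2, 46.2 and 45.1 CPM in PC9. COL5A1 was thus highest in PC9 and under 1 CPM in AALE, while COL1A1 stayed between 7.91 and 17.01 CPM in all 9. COL27A1 was at 15.2, 11.3 and 10.1 CPM in AALE, 19.9, 17.3 and 16.9 CPM in HCC827, and 1.36, 1.10 and 1.29 CPM in PC9, lowest in PC9.

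Among the other collagens, with values in the same order, AALE was low in COL6A1 and COL6A2 and high in COL7A1. COL6A1 was at 2.06, 2.27 and 2.16 CPM in AALE, 49.1, 67.9 and 68.7 CPM in HCC827, and 125, 108 and 134 CPM in PC9. COL6A2 was at 0.306, 0.636 and 0.344 CPM in AALE, 30.0, 37.5 and 45.8 CPM in HCC827, and 95.9, 75.5 and 95.1 CPM in PC9. COL6A3 was at 8.15, 3.13 and 1.09 CPM in AALE, 0.255, 0.384 and 0.313 CPM in HCC827, and 0.974, 0.993 and 1.37 CPM in PC9. For COL6A3 only the miR-147b and miR-21 libraries of AALE lay above every PC9 library, and its scrambled control lay below that of PC9. The AALE libraries lay under 3 CPM for COL6A1 and under 1 CPM for COL6A2, whereas every HCC827 and PC9 library was at 30.0 CPM or more for both. COL7A1 was at 314, 215 and 169 CPM in AALE, 6.94, 4.55 and 4.14 CPM in HCC827, and 99.5, 80.5 and 103 CPM in PC9. COL8A1 was at 8.52, 2.89 and 3.43 CPM in AALE, 3.47, 5.15 and 4.78 CPM in HCC827, and 125, 105 and 114 CPM in PC9. COL9A2 was at 0.175, 0.227 and 0.197 CPM in AALE, 3.81, 2.77 and 3.90 CPM in HCC827, and 14.3, 12.1 and 12.6 CPM in PC9. COL7A1 was highest in AALE, and COL8A1 and COL9A2 in PC9. COL12A1 was at 30.4, 16.9 and 14.6 CPM in AALE, 8.65, 14.99 and 13.3 CPM in HCC827, and 219, 243 and 214 CPM in PC9. COL13A1 was at 0.131, 0 and 0 CPM in AALE, 1.35, 2.77 and 1.64 CPM in HCC827, and 5.79, 3.66 and 5.99 CPM in PC9. COL16A1 was at 45.5, 40.4 and 33.1 CPM in AALE, 0.15, 0.0495 and 0.0482 CPM in HCC827, and 6.40, 4.96 and 5.99 CPM in PC9. PC9 was highest in COL12A1 and COL13A1, and AALE in COL16A1. COL28A1 was at 0.219, 0.483 and 0.219 CPM in AALE, 1.01, 0.97 and 0.962 CPM in HCC827, and 0.411, 1.08 and 0.641 CPM in PC9, near 1 CPM or below in all 9.

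In edgeR's test 24 of 29 collagens differed between AALE and the mean of HCC827 and PC9, 13 higher and 11 lower, as did 66.3% of 18433 genes, 34.4% upward and 32% downward. Higher in AALE were COL2A1, COL4A1, COL4A2, COL4A4, COL4A5, COL4A6, COL5A2, COL5A3, COL6A3, COL7A1, COL16A1, COL21A1 and COL27A1. Lower in AALE were COL5A1, COL6A1, COL6A2, COL8A1, COL9A2, COL12A1, COL13A1, COL15A1, COL18A1, COL24A1 and COL28A1. COL6A2 was lower, with a log2 difference of -7.25 ± 0.25 (edgeR adjusted p of 1.62e-08) and COL7A1 higher by 3.16 ± 0.16 (edgeR adjusted p of 1.46e-07). Of the 8 basement membrane collagens 5 were higher in AALE and 2 lower, while 4 of 12 tested others were higher and 7 lower. Of 4 tested fibroblast markers DCN, PDPN and ACTA2 were higher in AALE and S100A4 was lower.

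HCC827 against PC9 gave 25 of 29 collagens, 10 higher and 15 lower, beside 62% of genes, 31.6% and 30.4% in these directions. Higher in HCC827 were COL1A1, COL3A1, COL4A1, COL4A2, COL5A2, COL15A1, COL18A1, COL21A1, COL24A1 and COL27A1, and lower were COL4A3, COL4A4, COL4A5, COL4A6, COL5A1, COL6A1, COL6A2, COL6A3, COL7A1, COL8A1, COL9A2, COL9A3, COL12A1, COL13A1 and COL16A1. COL4A2 was higher by 9.36 ± 0.28 log2 units and COL16A1 lower, with a log2 difference of -6.08 ± 0.30 (edgeR adjusted p of 1.26e-08 and 2.17e-07). Of the 12 tested other collagens 10 were lower in HCC827, as were 1 of 9 fibrillar and 4 of 8 basement membrane collagens.

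**Figure D5:**
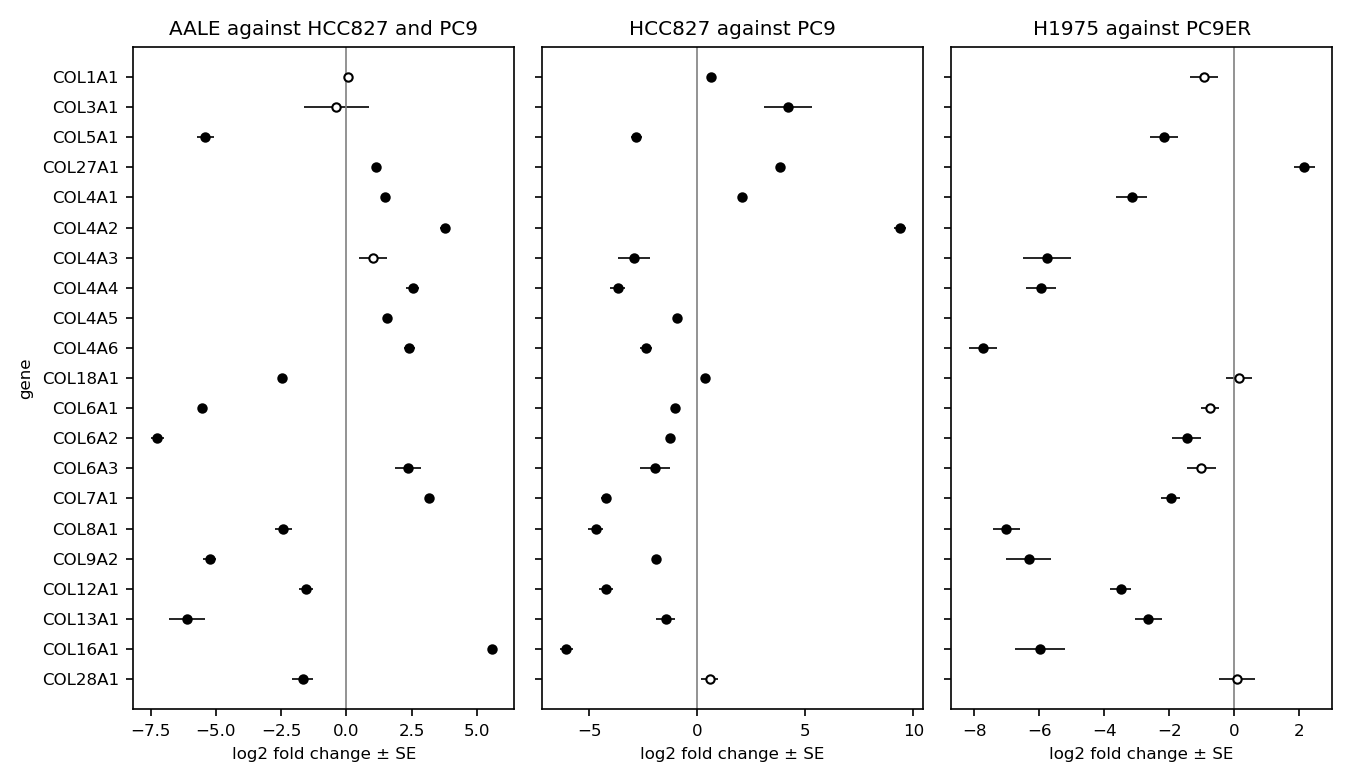
Log2 fold change ± SE (edgeR) of the 21 collagen genes that reached 5 CPM in AALE against HCC827 and PC9, HCC827 against PC9, and H1975 against PC9ER; filled points passed an adjusted p of 0.05. In the H1975 panel COL4A5 is left out because it was at 0 in all 3 H1975 libraries, and COL3A1 and COL4A2 because they were too low to be tested. COL4A2 lies at 9.36 in HCC827 against PC9, and the type IV genes shown in the H1975 panel lie left of 0.

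In the knockdown lines the 3 values are those of miR-147b knockdown, miR-21 knockdown and control knockdown, in that order, and the miR-21 value of PC9ER comes from the library that stood apart. H1975 was almost without type IV collagen. COL4A1 was at 0.58, 0.481 and 0.18 CPM in H1975, and 3.42, 3.63 and 3.09 CPM in PC9ER. COL4A2 was at 0, 0.0961 and 0.0899 CPM in H1975, and 0.217, 0.296 and 0.433 CPM in PC9ER. COL4A3 was at 0.0644, 0 and 0.0449 CPM in H1975, and 1.41, 2.81 and 2.25 CPM in PC9ER. No type IV chain reached 1 CPM in H1975. COL4A4 was at 0.193, 0.144 and 0.0449 CPM in H1975, and 7.38, 9.76 and 5.63 CPM in PC9ER. COL4A5 was at 0, 0 and 0 CPM in H1975, and 56.9, 61.1 and 55.3 CPM in PC9ER. COL4A6 was at 0.304, 0.144 and 0.27 CPM in H1975, and 46.5, 59.7 and 46.7 CPM in PC9ER. COL4A5 was at least 286-fold lower in H1975, when its libraries are set at the floor of 3 counts per library and compared with the lowest PC9ER library. COL18A1 was at 113, 143 and 73.6 CPM in H1975, and 94.7, 70.5 and 117 CPM in PC9ER, so this basement membrane collagen was not missing.

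For the fibrillar collagens, in the same order, COL1A1 was at 17.5, 24.0 and 15.9 CPM in H1975, and 40.6, 22.6 and 44.2 CPM in PC9ER. COL3A1 was at 0, 0 and 0.0899 CPM in H1975, and 0, 0 and 0 CPM in PC9ER. COL5A1 was at 40.8, 55.4 and 31.8 CPM in H1975, and 165, 131 and 265 CPM in PC9ER. COL5A1 was higher in PC9ER than in H1975. COL27A1 was at 14.8, 17.7 and 10.7 CPM in H1975, and 2.43, 3.68 and 3.19 CPM in PC9ER, higher in H1975. Of the others, COL6A1 was at 159, 198 and 126 CPM in H1975, and 262, 236 and 269 CPM in PC9ER. COL6A2 was at 60.7, 92.5 and 34.3 CPM in H1975, and 153, 128 and 184 CPM in PC9ER. COL6A3 was at 1.91, 1.36 and 0.801 CPM in H1975, and 2.05, 3.05 and 2.54 CPM in PC9ER. Both lines thus expressed the type VI chains COL6A1 and COL6A2. COL7A1 was at 44.3, 70.2 and 48.5 CPM in H1975, and 187, 186 and 227 CPM in PC9ER. COL8A1 was at 0.989, 0.529 and 1.21 CPM in H1975, and 104, 138 and 93.9 CPM in PC9ER. COL9A2 was at 0.0644, 0.24 and 0.135 CPM in H1975, and 19.2, 5.95 and 15.8 CPM in PC9ER. These 3 were lower in H1975. COL12A1 was at 2.45, 2.69 and 1.39 CPM in H1975, and 22.9, 46.9 and 10.9 CPM in PC9ER. COL13A1 was at 0.58, 1.39 and 1.80 CPM in H1975, and 6.35, 9.38 and 6.13 CPM in PC9ER. COL16A1 was at 0.0644, 0.433 and 0.0899 CPM in H1975, and 14.2, 8.49 and 14.4 CPM in PC9ER. COL12A1, COL13A1 and COL16A1 were lower in H1975 as well. COL28A1 was at 0.741, 0.588 and 0.955 CPM in H1975, and 0.562, 1.21 and 0.451 CPM in PC9ER, with overlap.

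H1975 against PC9ER gave 17 of 24 tested collagens, 3 higher and 14 lower, beside 46.1% of 17723 genes, 21.2% and 24.8% in these directions, and 19 collagens passed without the PC9ER miR-21 knockdown library, beside 67.6% of genes. Higher in H1975 were COL5A2, COL19A1 and COL27A1. Lower were COL4A1, COL4A3, COL4A4, COL4A5, COL4A6, COL5A1, COL6A2, COL7A1, COL8A1, COL9A2, COL9A3, COL12A1, COL13A1 and COL16A1. COL27A1 was higher by 2.15 ± 0.32 log2 units and COL8A1 lower, with a log2 difference of -7.02 ± 0.42 (edgeR adjusted p of 0.00410 and 0.000427), and without that library they were at 2.03 ± 0.28 and -6.62 ± 0.22 (edgeR adjusted p of 0.000871 and 9.72e-06).

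Genes that make or bind collagen were tested in the same fits, in which 66.3%, 62% and 46.1% of all genes passed. Of 25 tested synthesis and processing genes, 9 were higher and 11 lower in AALE than in HCC827 and PC9, 8 and 8 in HCC827 against PC9, and 5 and 8 in H1975 against PC9ER, or 9 and 12 without the PC9ER miR-21 knockdown library, where 67.6% of genes passed. SERPINH1, the collagen chaperone HSP47, was lower in HCC827 than in PC9, with a log2 difference of -3.50 ± 0.24, and P4HA2, a prolyl hydroxylase subunit, was higher in AALE by 2.01 ± 0.10 (edgeR adjusted p of 1.58e-06 and 1.74e-07). Of 15 basement membrane partners, 5 were higher and 6 lower in AALE, 6 and 7 in HCC827 against PC9, and 2 and 8 in H1975 against PC9ER, or 2 and 10 without that library. NID1, which links laminin to type IV collagen, was higher in HCC827 than in PC9 by 4.43 ± 0.29, and LAMB1, a laminin beta chain, was lower in H1975 than in PC9ER, with a log2 difference of -5.66 ± 0.28 (edgeR adjusted p of 1.29e-06 and 0.000392). DDR1, a receptor kinase for collagen, was lower in HCC827 than in PC9, with a log2 difference of -1.71 ± 0.19 and lower in H1975 than in PC9ER, with a log2 difference of -3.15 ± 0.36 (edgeR adjusted p of 3.64e-05 and 0.00179). Without the PC9ER miR-21 knockdown library the H1975 values were -5.48 ± 0.17 for LAMB1 and -3.59 ± 0.14 for DDR1 (edgeR adjusted p of 8.41e-06 and 1.29e-05).

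The miRNAs act by pairing their seed, bases 2 to 8, with complementary letters in messages, which lowers the message or its translation. The mature sequences, from RefSeq on GRCh38.p14, are shown with the seed in capitals because the sites below are its complement. MIR147B lies on the plus strand at chr15:45433098-45433118 and MIR21 on the plus strand at chr17:59841273-59841294.
hsa-miR-147b-3p: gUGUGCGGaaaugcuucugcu
hsa-miR-21-5p: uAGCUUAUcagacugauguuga

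The complement of the miR-147b seed, CCGCACA, occurred in the 3′ untranslated region of 0 of 42 collagen genes, compared with 2.44% of 18410 protein-coding genes. The complement of the miR-21 seed, ATAAGCT, occurred in 2 of 42, COL4A4 and COL12A1, compared with 8.86% of genes. The sites are printed with 10 bases on either side, 5′ to 3′ on the message strand, with the seed complement in capitals.
COL4A4: aagccaattgATAAGCTttcaaaatgg
COL12A1: caattctacaATAAGCTtctgcatcaa

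COL12A1 was the collagen with the smallest p in both knockdowns, and it lay higher in each knockdown library than in its control. Both knockdowns of a line share its control library, so the contrasts are not independent. It was at 2.69 CPM in miR-21 knockdown and 1.39 CPM in control H1975 cells, and at 46.9 CPM in miR-21 knockdown and 10.9 CPM in control PC9ER cells. It was also at 2.45 CPM in H1975 and 22.9 CPM in PC9ER cells with the miR-147b knockdown, for which its message holds no seed complement in that region. The log2 difference was 1.44 ± 0.38 for the miR-21 knockdown and 0.94 ± 0.38 for the miR-147b knockdown (edgeR adjusted p of 0.833 and 1), and without the PC9ER miR-21 knockdown library 1.02 ± 0.32 and 0.97 ± 0.23 (edgeR adjusted p of 1 for both). With miR-21 over-expression COL12A1 lay above the scrambled control in all 3 lines, at 16.9, 14.99 and 243 CPM in AALE, HCC827 and PC9 with miR-21 and 14.6, 13.3 and 214 CPM with the scrambled control. COL4A4, the other gene with a site, had a log2 difference of 0.68 ± 0.50 in the miR-21 knockdown and -0.48 ± 0.30 with miR-21 over-expression (edgeR adjusted p of 0.833 and 1), and without that PC9ER library it was at 0.66 ± 1.06 in the knockdown (edgeR adjusted p of 1).

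No collagen passed in the 4 miRNA contrasts. With miR-147b over-expression 0 of 29 tested collagens passed (0.00543% of 18433 genes), and 2, COL4A5 and COL7A1, were under the unadjusted 0.05, as were 4.49% of genes. COL4A5 was higher by 0.49 ± 0.16 and COL7A1 by 0.51 ± 0.19 log2 units (edgeR adjusted p of 0.921 for both), and the values above show AALE as the line with the wider gap. With miR-21 over-expression 0 of 29 passed (0% of genes), with 0 under the unadjusted 0.05 against 0.928% of genes. With miR-147b knockdown 0 of 24 passed (0% of genes), with 1 under the unadjusted 0.05 against 0.824% of genes. With miR-21 knockdown 0 of 24 passed (0% of genes), with 1 under the unadjusted 0.05 against 2.01% of genes. Without the PC9ER miR-21 knockdown library that count of calls was 0 as well, and without the H1975 miR-21 knockdown library it was 4, with COL12A1 higher and COL1A1, COL9A2 and COL16A1 lower, beside 32.3% of genes, in a fit whose only miR-21 knockdown is the library that stood apart.

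Pair by pair, 14 of the 73 collagen values past 2-fold in 14 pairs were in the 10 miRNA pairs, and 69 remained over the other 13 pairs when the PC9ER miR-21 knockdown library was left out. Of all genes, 18.9% to 33.1% passed 2-fold in the tolerance pairs. The miRNA pairs had 1.7% to 5.45%, apart from 29.3% in the PC9ER miR-21 knockdown library. In AALE with miR-147b 3 of 20 tested collagens were higher and 1 lower, beside 2.07% and 3.38% of genes. They were COL6A3 at 8.15 CPM with miR-147b and 1.09 CPM with scrambled control, COL8A1 at 8.52 and 3.43 CPM, COL12A1 at 30.4 and 14.6 CPM, and COL9A1, the lower, at 0.094 and 1.06 CPM, each with miR-147b and then scrambled control. In AALE with miR-21 COL6A3 was higher (3.13 CPM, against 1.09 CPM with scrambled control) and COL9A1 lower (0.0499 CPM, against 1.06 CPM), beside 1.32% and 0.743% of genes. The AALE pairs share their control library, in which COL6A3 was the lowest and COL9A1 the highest of the 3 AALE libraries. In the HCC827 and PC9 over-expression pairs 0 collagens passed, where 0.436% to 2.09% of genes passed in either direction taken alone.

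In H1975 with miR-147b knockdown COL6A3 was higher (1.91 CPM, against 0.801 CPM in control) and COL13A1 lower (0.580 CPM, against 1.80 CPM), beside 0.819% and 1.67% of genes. With miR-21 knockdown COL6A2 was higher in H1975 (92.5 CPM, against 34.3 CPM in control), beside 1.19% of genes. In PC9ER with miR-147b knockdown only COL12A1 passed, beside 3.11% of genes upward and 1.63% downward. In the PC9ER miR-21 knockdown library that stood apart, COL12A1 and COL28A1 were higher and COL5A1 and COL9A2 lower, beside 26.3% and 2.92% of genes. COL5A1 was at 131 CPM there and at 265 CPM in its control, and COL9A2 at 5.95 CPM there and at 15.8 CPM in its control.

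The 12 genes that peaked between 1 and 5 CPM were COL2A1, COL5A2, COL5A3, COL9A1, COL9A3, COL11A1, COL11A2, COL15A1, COL19A1, COL20A1, COL21A1 and COL24A1. COL2A1, the chain of cartilage type II collagen, peaked at 1.08 CPM in AALE with the scrambled control. COL5A3 peaked at 2.01 CPM and COL21A1 reached 3.64 CPM in AALE. COL26A1 had no protein-coding entry under that name and was not analysed here.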

How the data were processed

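RNA of 21 cell line libraries was sequenced after an Illumina Truseq mRNA preparation, per the labels. The deposited values are expected counts for each gene in 3 tables, which the authors made with Bowtie2 and RSEM on GRCh37, per the submitters' processing notes. Their versions, the annotation and the strand setting are not given, so reads of overlapping antisense transcripts cannot be told apart. A further deposited file lists reads per library (17932024 to 33129732), of which 85.4% to 91.2% were counted. As 64.3% of the nonzero expected counts were fractional, all values were rounded before testing. The 5 control columns that both miRNA tables hold were identical, and 0 of 210 pairs of libraries were. The file of 1 table names another miRNA than its columns; the columns were used.

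CPM were expected counts per 1000000 counts of a library. Levels per kilobase used the merged exons of all transcripts of a gene in GENCODE release 29 (GRCh38). Tests were edgeR 4.0.16 (R 4.3.3) quasi-likelihood fits with TMM, filterByExpr, the cell line as block and Benjamini-Hochberg adjustment at 0.05 over all genes tested, fitted apart for 6 tolerance, 9 over-expression and 6 knockdown libraries. The pairing by line is that of the labels; deviations from the group means correlated within lines at 0.706 to 0.859, 0.904 to 0.923 and 0.797 to 0.93 in these fits. Single pairs used log2((CPM + 0.25)/(CPM + 0.25)) where either library reached 1 CPM. DESeq2 1.42.0, RLE scaling, no filter, no block, a pseudocount of 1 CPM, a minimum of 5 CPM, TMM library sizes and leaving out each library were alternatives. The SE given with edgeR log2 differences is the absolute log2 difference divided by the square root of the quasi-likelihood F statistic. The edgeR step was tested on simulated data. Genes were named if they reached 5 CPM, passed a contrast or came nearest, passed 2-fold in a pair, or formed a head-to-head pair. The collagen genes, the lists of synthesis, receptor, basement membrane and cell type marker genes, and the rule were chosen with earlier results of these data known. A gene of these lists is not reported here.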

Additional observations from a re-analysis of the deposited data

Results flagged for a closer look

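The tolerance-associated difference of COL12A1 was larger in HCC827 than in PC9 by 3.49 log2 units, and this interaction passed edgeR's test (adjusted p of 0.0333). Each line has 1 parental library and the drugs stand as repeats, and the call was lost without either tolerant HCC827 library (adjusted p of 0.12 and 0.106 in edgeR) and with no filter on low counts (adjusted p of 0.053 in edgeR). Both tolerant libraries were above the parental one in HCC827 and below it in PC9, there with gefitinib at a log2 ratio of -0.0876. COL8A1 lay above the parental cells in both tolerant HCC827 libraries and below them in both tolerant PC9 libraries, a difference between the lines of 3.81 log2 units that did not pass (SE 1.23, edgeR adjusted p of 0.136). The COL12A1 values were 94.1 and 87.2 CPM in tolerant and 10.3 CPM in parental HCC827 cells, and 250.2 and 186 CPM in tolerant and 266 CPM in parental PC9 cells. For COL8A1 they were 11.3 and 19.5 CPM in tolerant and 3.23 CPM in parental HCC827 cells, and 96.4 and 24.9 CPM in tolerant and 173 CPM in parental PC9 cells.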

How the results depend on the processing

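DESeq2 called 7 collagens for gefitinib, 7 for osimertinib, 9 for either drug and 5 in the interaction of line and tolerance, where edgeR called 0, 0, 0 and 1; DESeq2 called 6.78%, 8.84%, 12.5% and 11.9% of all genes there. With no filter on low counts edgeR called 3 for osimertinib and 3 for either drug, beside 0.38% and 1.44% of genes. Both times these were COL4A3, COL4A4 and COL5A1, all higher. There it called 0 in the interaction and 1, COL7A1, with miR-147b over-expression, beside 0.00832% and 0.725% of genes. With no replicate block it called 0 in each contrast within the lines; the fits with the block are those reported. A minimum of 5 CPM gave 45 in place of 73 collagen values past 2-fold in single pairs, and leaving out the PC9ER miR-21 knockdown library, chosen after seeing the data, gave 69. The share over all genes at a minimum of 5 CPM was not computed.

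Leaving out each library gave 0 to 9 collagens for gefitinib, 0 to 8 for osimertinib, 0 to 11 for either drug, 0 for osimertinib against gefitinib, 0 to 5 in the interaction, 0 in both over-expressions and the miR-147b knockdown, and 0 to 4 in the miR-21 knockdown. The line contrasts gave 24 to 25 for AALE, 21 to 25 for HCC827 against PC9 and 15 to 19 for H1975 against PC9ER. In the same fits 58.8% to 64.5%, 53.3% to 64.8% and 25.8% to 67.6% of all genes passed. The upper counts for the drugs came without the parental PC9 library, where 17.8% to 22.9% of all genes passed, and that of the miR-21 knockdown without its H1975 library, where 32.3% did; the interaction could not be fitted without a parental library.

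Of 1294 recomputed log2 differences of named collagens 1218 kept direction and call, and 12 changed sign, none of them called. These were COL4A1 at 1.05 and COL6A1 at 0.16 for osimertinib against gefitinib without gefitinib-tolerant HCC827 (lowest over the libraries left out -1.87 and -0.62), COL27A1 at 0.14 in the interaction without osimertinib-tolerant PC9 (lowest -1.94), and COL2A1 at 0.29 and 0.36 with miR-147b over-expression without the scrambled or the miR-147b AALE library (lowest -0.75). In the miR-147b knockdown COL4A3 was at 1.21 without the PC9ER library (lowest -0.83). In the miR-21 knockdown COL8A1 was at 0.27 with no replicate block and at 0.11 and 0.24 without the H1975 control or miR-21 library, COL1A1 at 0.28 and 0.51 without the PC9ER control or miR-21 library, and COL9A2 at 1.20 without that PC9ER miR-21 library, with lowest values of -1.05, -1.16 and -1.71 for these 3 genes. The cause was not tested. With 2 or 3 lines per group and 1 library each, the number of lines limits the tests, and genes near the floor of 3 counts have wide counting error.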
